A study of Mus musculus with 12 samples.

Results

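The genes described here are 9 genes that mark cells of the monocyte lineage in the mouse, taken from RNA-seq of bone marrow cells with and without the leukaemia fusion MLL::AF9. They were chosen by name, as the rows of both deposited count tables whose gene name was Irf8, Klf4, Csf1r, Ccr2, Cx3cr1, Msr1, Ly6c2, Lyz2 or F13a1. All 9 were found, among 55487 genes. The study asked what lies behind the drug resistance that goes with sPrdm16, a form of the transcriptional regulator Prdm16 whose name the labels do not expand. Per the labels, murine bone marrow cells carried a retrovirus for MLL::AF9 (MA9) or were normal marrow (WT), and each kind then received a mock retrovirus or one that expressed sPrdm16. This gave 4 groups of 3 libraries, MA9 mock, MA9 sPrdm16, WT mock and WT sPrdm16. The sources used here give no strain, age or time after infection. For culture, the labels describe a medium for the MA9 cells alone, with 5 ng/ml of the cytokine IL-3, so how the WT cells were grown is not known. The labels do not tie the replicates to different animals or cultures, and each p-value therefore measures spread among these libraries that may be technical.

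Monocytes arise in the marrow from myeloid progenitors that can also become neutrophils or dendritic cells. Irf8 is an interferon regulatory factor that turns such progenitors towards monocytes and dendritic cells and away from neutrophils, and Klf4 is a zinc-finger factor that acts after it in mouse monocyte development. Their progeny carry Csf1r, the receptor for the growth factors CSF1 and IL-34, and Ccr2, the receptor for CCL2 by which classical monocytes leave the marrow. Cx3cr1 is the fractalkine receptor, most abundant on patrolling monocytes, and Msr1 is a class A scavenger receptor that takes up modified lipoproteins. Ly6c2 encodes a lipid-anchored surface protein used to mark classical mouse monocytes, Lyz2 encodes the lysozyme of phagocytes, granulocytes included, and F13a1 encodes the A subunit of coagulation factor XIII, which cross-links fibrin. MLL::AF9 drives an acute myeloid leukaemia that often has monocytic features.

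Totals ran from 17217123 to 37390897 counts per library. Structural RNAs here pool ribosomal, mitochondrial transfer, small nuclear, small nucleolar and related noncoding RNA genes, whose separate shares are not given. Together they took 64.6% ± 8.31 of the counts in MA9 mock (SD, n = 3), 18.7% ± 0.120 in MA9 sPrdm16, and 1.41% to 2.46% in the 6 WT libraries. Nuclear protein-coding genes therefore held 3844571 to 7406093 counts in the MA9 mock libraries, 16905140 to 28169222 in MA9 sPrdm16 and 16046130 to 17789866 in WT. Prdm16 followed the labels, with 0 counts in each MA9 mock library, 0 to 22 in WT mock, 5353 to 8889 in MA9 sPrdm16 and 708 to 950 in WT sPrdm16. In bulk RNA, fewer cells of a type and less RNA per cell cannot be told apart.

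The 9 genes stood at very different levels in the 4 groups. The levels in this paragraph are CPM, counts scaled to a common library total, with all 12 libraries scaled together by TMM. In WT mock, Lyz2 stood at 21286 ± 1280 CPM (SD, n = 3), against 231.7 ± 80.8 CPM in MA9 mock, which was 91.9-fold lower. Msr1 stood 18.0-fold, Csf1r 9.43-fold, Klf4 6.06-fold, Ly6c2 2.26-fold and Ccr2 1.59-fold lower in MA9 mock than in WT mock. F13a1 went the other way and was 5.68-fold higher in MA9 mock, with a mean of 429.9 ± 42.7 CPM against 75.7 ± 16.4 CPM for WT mock. Irf8 overlapped between both, at 48.2 ± 12.4 and 47.8 ± 6.68 CPM, and Cx3cr1 was near 0 throughout. Thus the 2 sets of mock libraries did not overlap for 7 of the 9 genes, of which 6 were lower and 1 was higher in MA9, while 37.9% of all tested genes were lower and 34.4% higher in that sense. Taken in either direction, most tested genes did not overlap, and the 7 of 9 are near that share. Each genotype was deposited in its own table, so genotype and table cannot be told apart and no test was made.

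Levels per kilobase use the deposited gene lengths and the scale of the 12 libraries. At these lengths Lyz2 had the highest mean of the 9 in 3 of the 4 groups. It stood at 176 CPM per kilobase in MA9 mock, 16175 in WT mock and 13893 in WT sPrdm16. In MA9 mock its range, 109 to 229, met that of F13a1, 97.5 to 119. In MA9 sPrdm16 the order changed. Ly6c2, at 143 ± 3.58 CPM per kilobase (SD, n = 3), and F13a1, at 138 ± 1.32, stood above Lyz2, at 119 ± 2.98. The ranges of Ly6c2 (139 to 146) and F13a1 (137 to 139.8) met, so their order was not resolved at these lengths. In that group Irf8 came next at 3.33 CPM per kilobase, then Ccr2 at 1.57, Csf1r at 0.540, Klf4 at 0.147, Msr1 at 0.0652 and Cx3cr1 at 0.00945. In WT sPrdm16 the levels after Lyz2 were 105 for Ly6c2, 50.9 for Csf1r, 15.8 for Irf8, 15.4 for Klf4, 12.7 for Ccr2, 11.9 for F13a1, 5.65 for Msr1 and 0.116 for Cx3cr1, all in CPM per kilobase. There Irf8, Klf4, Ccr2 and F13a1 were neighbours whose ranges overlapped. The length used for Ly6c2, 2680 bases, is that of a long transcript in the deposited table, while its coding transcripts have 822, 638 and 538. Its level per kilobase is thus a low estimate. Unscaled by length, mean Ly6c2 was already above mean Lyz2 in MA9 mock, at 252 against 232 CPM, and Lyz2 is given 1316 bases. The place of Ly6c2 in the MA9 orders, and the change of order there, therefore depend on the length used.

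**Figure D1:**
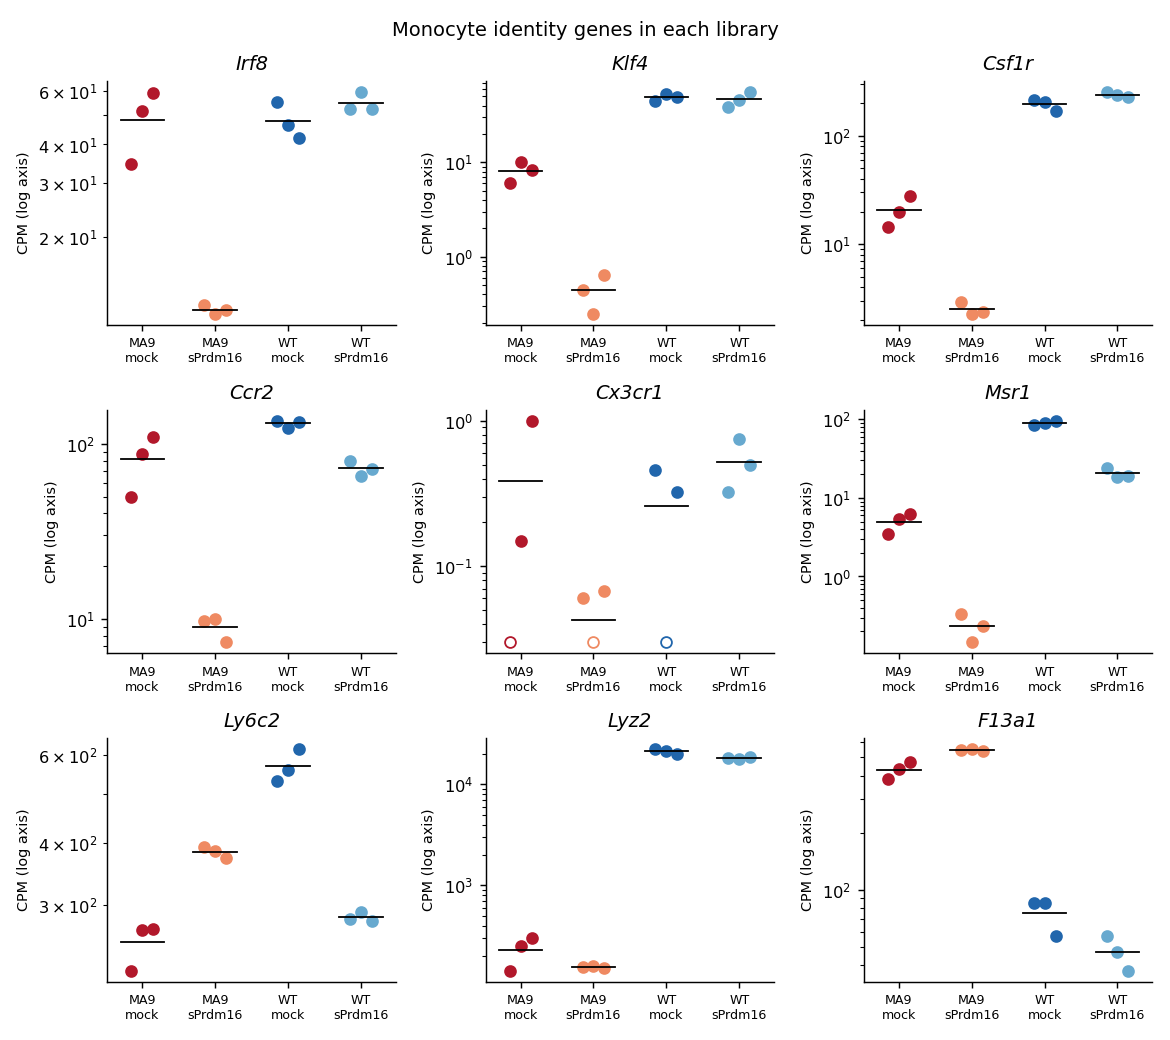
Level of each of the 9 genes in each library, in CPM on a log axis with all 12 libraries scaled together; points are libraries, bars are group means of 3 libraries, and open symbols at the bottom are libraries with 0 counts. In MA9 cells Irf8, Klf4, Csf1r, Ccr2 and Msr1 were lower in every sPrdm16 library than in any mock library, while Ly6c2 and F13a1 were higher in each of them.

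In MLL::AF9 cells, sPrdm16 went with a split among the monocyte genes. The 2 transcription factors and 3 of the receptors fell, Irf8, Klf4, Csf1r, Ccr2 and Msr1, to between 0.224 of the mock mean for Irf8 and 0.0444 of it for Msr1. Ly6c2 and F13a1 rose, by 1.43-fold and 1.19-fold. Lyz2 was not called, and Cx3cr1 had too few counts to be tested. So 5 of the 8 genes tested fell, where 17.5% of all 14394 tested genes fell, and 2 rose, where 17.1% did. That made 7 of 8 called in either direction, against 34.6% of all tested genes. The same 5 were lower and the same 2 higher in all sPrdm16 libraries than in all mock libraries, against 23.4% and 26.7% of all tested genes. The median log2 fold change of the 8 was -2.63, against 0.03 for all genes tested. The test was edgeR's quasi-likelihood test over all genes with Benjamini-Hochberg adjustment and a threshold of 0.05, and CPM values from here on are scaled within a genotype by TMM.

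Irf8 (ENSMUSG00000041515.10, chromosome 8, 120736358 to 120756694, plus strand, mm10) stood at 28.6, 42.4 and 49.9 CPM in the MA9 mock libraries and at 9.34, 8.63 and 9.11 CPM in the sPrdm16 libraries. The groups were far apart, and the spread lay almost wholly in the mock group. It fell by 2.15 on the log2 scale (SE 0.18, adjusted p = 4.4e-05). Klf4 (ENSMUSG00000003032.8, chromosome 4, 55527143 to 55532466, minus strand) stood at 5.00, 8.30 and 7.05 CPM with mock and at 0.351, 0.192 and 0.508 CPM with sPrdm16. These last levels rest on 15, 12 and 19 counts. Every sPrdm16 library was thus more than an order of magnitude below its mock group's mean, with a log2 fold change of -4.31 (SE 0.40, adjusted p = 6.3e-05).

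RefSeq promoter windows on GRCm38.p6, from 250 bases before to 50 bases after an annotated start, were at hand for 7 of the 9 genes. They are shown for the 2 transcription factors, which fell in MA9 cells, and, where those are described, for the 2 genes that rose there. Each window was searched on both strands for 4 short motifs of myeloid factors: GAGGAA, a core bound by the ETS factor PU.1, GAAANNGAAA, paired sites of interferon regulatory factors, CACCC, a core bound by Krüppel-like factors, and TTGCNNAA, a form of the C/EBP site. These letters occur in 28.3%, 3.44%, 57.5% and 10.8% of all 32851 promoter windows of that length, so a match describes the window and does not show a site. The windows of Irf8 (chr8:120736108-120736407, plus strand) and Klf4 (chr4:55532426-55532725, minus strand) held none of the 4 motifs, so no letters are in capitals.
Irf8: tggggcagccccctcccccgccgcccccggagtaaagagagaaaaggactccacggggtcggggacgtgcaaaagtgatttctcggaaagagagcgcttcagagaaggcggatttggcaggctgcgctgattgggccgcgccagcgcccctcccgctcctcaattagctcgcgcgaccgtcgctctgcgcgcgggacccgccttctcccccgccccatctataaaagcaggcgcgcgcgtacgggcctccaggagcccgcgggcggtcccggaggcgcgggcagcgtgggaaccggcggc
Klf4: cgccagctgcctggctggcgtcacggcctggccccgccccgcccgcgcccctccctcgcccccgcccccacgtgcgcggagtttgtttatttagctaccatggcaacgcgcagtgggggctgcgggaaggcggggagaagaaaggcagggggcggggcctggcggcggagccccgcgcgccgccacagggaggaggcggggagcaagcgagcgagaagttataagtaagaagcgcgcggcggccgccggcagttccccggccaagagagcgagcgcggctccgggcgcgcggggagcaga

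Csf1r (ENSMUSG00000024621.16, chromosome 18, 61100598 to 61132149, plus strand) had 202, 268 and 195 counts in MA9 mock and 99, 110 and 70 in MA9 sPrdm16, although the sPrdm16 libraries were deeper. This was 12.02, 16.4 and 23.7 CPM against 2.32, 1.76 and 1.87 CPM. The receptor's transcript was lower in each sPrdm16 library than in any mock library, and its log2 fold change was -3.11 (SE 0.26, adjusted p = 3.9e-05). Ccr2 (ENSMUSG00000049103.14, chromosome 9, 124101950 to 124113557, plus strand) stood at 41.3, 72.5 and 92.8 CPM with mock and at 7.58, 7.63 and 5.80 CPM with sPrdm16. The mock libraries were spread widely, and each still stood above every sPrdm16 library (log2 fold change -3.28, SE 0.30, adjusted p = 0.000205). Msr1 (ENSMUSG00000025044.16, chromosome 8, 39581685 to 39642673, minus strand) stood at 2.86, 4.46 and 5.23 CPM with mock and at 0.257, 0.112 and 0.187 CPM with sPrdm16. Its log2 fold change was -4.49 (SE 0.46, adjusted p = 0.000111), within error of that of Klf4, and rested on 11, 7 and 7 counts with sPrdm16. Cx3cr1 (ENSMUSG00000052336.7, chromosome 9, 119901616 to 120069879, minus strand) was all but silent, the mock libraries holding 0, 2 and 7 counts of it and the sPrdm16 libraries 2, 0 and 2. At this depth no difference in the fractalkine receptor was detectable.

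Ly6c2 (ENSMUSG00000022584.14, chromosome 15, 75108158 to 75111970, minus strand) moved against the receptors. It stood at 182, 220.0 and 228 CPM in MA9 mock and at 307, 297 and 295 CPM in MA9 sPrdm16. All sPrdm16 libraries were above all mock libraries, and it rose by 0.51 on the log2 scale (SE 0.08, adjusted p = 0.00123). F13a1 (ENSMUSG00000039109.16, chromosome 13, 36867178 to 37050244, minus strand) stood at 318, 359 and 399 CPM with mock and at 427, 426 and 429 CPM with sPrdm16. The groups did not overlap, but the gap was narrow, with a log2 fold change of 0.25 (SE 0.08, adjusted p = 0.0325). This call was weak. It ended when any 1 library other than MA9 mock replicate 3 was left out (adjusted p = 0.0598 to 0.126, log2 0.16 to 0.26), and with RLE scaling (adjusted p = 0.0569), a filter of 5 CPM (adjusted p = 0.0778) or a fit on all 12 libraries (adjusted p = 0.0834).

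The first RefSeq windows of these 2 genes, at chr15:75111922-75112221 for Ly6c2 and chr13:37050195-37050494 for F13a1, both on the minus strand, held 2 matches to GAGGAA each, shown in capitals. In Ly6c2 the matches begin at bases -108 and 27, and in F13a1 at -66 and 18, counted from the annotated start as base 1. Ly6c2 also held CACCC, in capitals, from base -237. No match overlapped another. The first windows of Irf8, Klf4, Ccr2, Cx3cr1 and Lyz2 held no GAGGAA. No window was at hand for Csf1r or Msr1, which fell in MA9 cells. As 28.3% of all windows match GAGGAA, most windows hold none. A link between these letters and the direction of change was not tested.
Ly6c2: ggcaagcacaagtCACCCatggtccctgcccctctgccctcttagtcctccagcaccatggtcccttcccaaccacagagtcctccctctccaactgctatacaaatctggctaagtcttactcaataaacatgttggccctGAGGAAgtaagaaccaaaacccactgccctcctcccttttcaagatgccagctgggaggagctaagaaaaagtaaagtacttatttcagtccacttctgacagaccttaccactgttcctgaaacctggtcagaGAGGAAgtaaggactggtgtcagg
F13a1: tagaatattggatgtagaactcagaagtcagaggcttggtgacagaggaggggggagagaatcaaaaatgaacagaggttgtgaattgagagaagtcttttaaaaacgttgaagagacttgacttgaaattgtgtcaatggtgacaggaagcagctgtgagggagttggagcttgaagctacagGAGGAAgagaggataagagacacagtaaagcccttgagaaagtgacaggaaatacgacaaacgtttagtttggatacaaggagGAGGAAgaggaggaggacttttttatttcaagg

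Lyz2 (ENSMUSG00000069516.8, chromosome 10, 117277331 to 117282321, minus strand) stood at 118, 207 and 256 CPM in MA9 mock and at 122, 124 and 121 CPM in MA9 sPrdm16. The sPrdm16 libraries were close to each other and lay inside the range of the mock libraries. The log2 fold change of -0.66 had a 95% interval of -1.30 to -0.02 and an adjusted p = 0.104. Lyz2 was called lower without MA9 mock replicate 1 (-0.93, adjusted p = 0.000114). With that library kept, it was also called lower by DESeq2 (-0.69, adjusted p = 0.00975), in the fit on all 12 libraries (-0.56, adjusted p = 0.0210) and, at -0.70 with an adjusted p = 0.0366, in a fit to nuclear protein-coding genes alone.

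Within the MA9 libraries the genes that fell also varied together. Over the 6 MA9 libraries, Pearson correlations of log2 CPM among Csf1r, Irf8, Ccr2, Msr1 and Klf4 ran from 0.962 to 0.996, and Ly6c2 and F13a1 correlated at 0.978. Both were negatively correlated with the other 5, at -0.786 to -0.916. These are descriptions over 6 libraries that share the group difference and the scaling. Within the mock group alone, replicate 1 was the lowest of the 3 for all 8 genes tested.

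In normal marrow cells the same genes split along another line. Msr1, Ly6c2, Ccr2, F13a1 and Lyz2 fell with sPrdm16, while Csf1r rose slightly and Irf8 and Klf4 were not called. Of the 8 genes tested 5 fell and 1 rose, where 16.6% of all 14063 tested genes fell and 17.5% rose, so 6 of 8 were called in either direction, against 34.1%. With libraries scaled within WT, the same 5 were lower and Csf1r was higher in all sPrdm16 libraries than in all mock libraries, against 22.8% and 23.8% of all tested genes. The median log2 fold change of the 8 was -0.46, against 0.01 for all genes tested.

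Irf8 stood at 68.9, 57.4 and 52.3 CPM in WT mock and at 64.6, 73.2 and 64.7 CPM in WT sPrdm16, and Klf4 at 56.0, 66.2 and 61.7 against 48.2, 56.3 and 68.6 CPM. Both transcription factors overlapped between the groups. Their log2 fold changes were 0.18 (95% interval -0.09 to 0.45, adjusted p = 0.291) for Irf8 and -0.09 (-0.38 to 0.21, adjusted p = 0.664) for Klf4. The intervals exclude changes as large as those in MA9 cells, which were -2.15 for Irf8 and -4.31 for Klf4. Csf1r stood at 268, 252 and 211 CPM with mock and at 312, 293 and 281 CPM with sPrdm16. The receptor gene rose by 0.28 on the log2 scale (SE 0.10, adjusted p = 0.0387), a call that ended when any 1 library other than WT mock replicate 1 was left out (adjusted p = 0.0521 to 0.135, log2 0.18 to 0.31) and in a fit on all 12 libraries (adjusted p = 0.140).

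Msr1 fell in WT cells from 106, 111 and 119.9 CPM with mock to 29.6, 22.9 and 23.7 CPM with sPrdm16. The groups were well apart (log2 fold change -2.14, SE 0.13, adjusted p = 1.2e-08). Ly6c2 stood at 666, 695 and 767 CPM with mock and at 346, 357 and 344 CPM with sPrdm16, a log2 fold change of -1.02 (SE 0.08, adjusted p = 3.6e-07). The classical monocyte marker that rose in MA9 cells was thus at 0.492 of its mock mean here. Ccr2 stood at 170.0, 154 and 165 CPM with mock and at 99.1, 81.4 and 88.5 CPM with sPrdm16, also without overlap (-0.86, SE 0.10, adjusted p = 1.3e-05).

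F13a1 stood at 106, 106 and 70.5 CPM in WT mock and at 70.4, 58.3 and 46.2 CPM in WT sPrdm16. The lowest mock library and the highest sPrdm16 library were nearly equal, and on the scale of the 12 libraries they overlapped, at 56.7 and 56.9 CPM. The gene fell by 0.69 on the log2 scale (SE 0.17, adjusted p = 0.00543). Lyz2 stood at 27962, 26780.1 and 24702 CPM with mock and at 22616, 22135 and 23002 CPM with sPrdm16. The groups did not overlap, and it fell by 0.23 (SE 0.08, adjusted p = 0.0320). The call ended when any 1 library other than WT mock replicate 3 was left out (adjusted p = 0.0654 to 0.148), in a fit on all 12 libraries (adjusted p = 0.373), and with total counts (-0.05, adjusted p = 0.595). Cx3cr1 was not tested, for the mock libraries held 10, 0 and 7 counts of it and the sPrdm16 libraries 8, 17 and 11. Over the 6 WT libraries, Ccr2, Ly6c2 and Msr1 correlated with each other at 0.965 to 0.990, and Csf1r with Irf8 at 0.820, as a description.

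**Figure D2:**
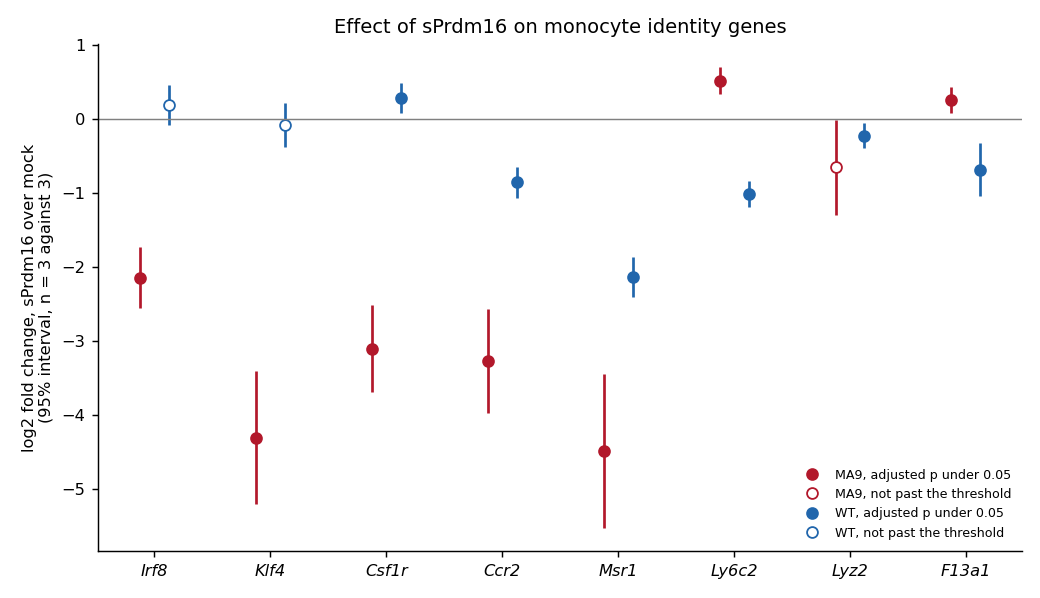
Log2 fold change of sPrdm16 over mock for the 8 genes tested, in MA9 cells and in WT cells, with 95% intervals and 3 libraries against 3; filled points have an adjusted p under 0.05. Irf8, Klf4 and Csf1r lie at -2.15, -4.31 and -3.11 in MA9 and near 0 in WT, while Ly6c2 lies at 0.51 in MA9 and at -1.02 in WT.

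The effect of sPrdm16 on these genes therefore differed between the 2 kinds of cell for most of them. Prdm16 itself had 5353 to 8889 counts in MA9 sPrdm16 and 708 to 950 in WT sPrdm16. How the WT cells were grown is not known, so kind of cell, Prdm16 level and culture cannot be told apart here. An interaction term over all 12 libraries called 7 of the 9. The effect was lower in MA9 than in WT for 5 and higher for 2. Of all 16194 tested genes, 12% were called lower in this sense and 16.0% higher, or 28.0% in either direction. Klf4 differed most among the 7, by -4.17 on the log2 scale (SE 0.34, adjusted p = 8.4e-08), followed by Csf1r at -3.29 (SE 0.24, adjusted p = 2.2e-08). Ccr2 differed by -2.33 (SE 0.29, adjusted p = 2.3e-05), Msr1 by -2.26 (SE 0.36, adjusted p = 0.000122) and Irf8 by -2.25 (SE 0.22, adjusted p = 9.0e-07). For Ccr2 and Msr1, which fell in both kinds of cell, this is a steeper fall in MA9. Ly6c2 and F13a1 differed the other way, by 1.62 (SE 0.12, adjusted p = 3.8e-08) and 1.03 (SE 0.21, adjusted p = 0.00127). No difference was called for Lyz2 (-0.34, 95% interval -0.86 to 0.17, adjusted p = 0.330) or for Cx3cr1 (-3.88, 95% interval -7.63 to -0.13, adjusted p = 0.118), whose value rests on the few counts given above. Without MA9 mock replicate 1 the difference for Lyz2 was -0.58 (adjusted p = 0.000903). With total counts the 7 differences kept direction and call but moved upwards, to -2.98 for Klf4, -2.06 for Csf1r, -1.08 for Ccr2, -1.07 for Msr1, -1.03 for Irf8, 2.80 for Ly6c2 and 2.21 for F13a1. A constant difference between the 2 deposited tables cancels in this comparison. One that differs between the groups of a table does not. Structural RNA was of that kind, at 64.6% and 18.7% in MA9 mock and MA9 sPrdm16 and at 2.25% and 1.72% in WT.

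The fall in structural RNA from 64.6% to 18.7% of the counts between MA9 mock and MA9 sPrdm16 bears on the scale of every MA9 value. Scaled to total counts alone, the median of all genes in MA9 moved by 1.43 on the log2 scale, and 11489 genes rose and 607 fell in place of 2456 and 2525. On that scale Klf4, Msr1, Ccr2 and Csf1r still fell, with log2 fold changes of -2.86, -3.01, -1.77 and -1.61, while Irf8 stood at -0.67 and was not called (adjusted p = 0.0562) and Lyz2 turned to 0.85. Ly6c2 and F13a1 stood at 1.95 and 1.70. Directions in MA9 cells are thus relative to the median gene. Counted and tested on nuclear protein-coding genes alone, which leaves the structural RNA out, Irf8 stood at -2.18, Klf4 at -4.36, Csf1r at -3.15, Ccr2 at -3.31, Msr1 at -4.53, Ly6c2 at 0.47 and F13a1 at 0.21, each called in the same direction as with all genes.

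**Figure D3:**
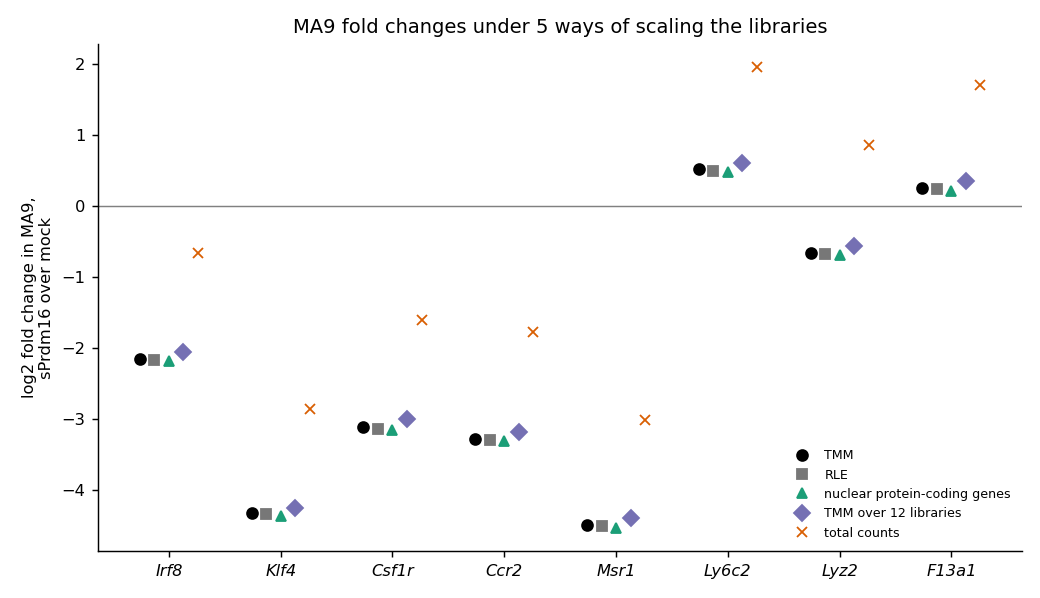
Log2 fold change of 8 genes in MA9 cells, sPrdm16 over mock, under 5 ways of scaling the libraries. Total counts moved every gene upwards, for example Irf8 from -2.15 to -0.67, and the other 4 scalings lay close together.

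Ratios between genes within a library do not depend on scaling. Those given here divide a gene that rose in MA9 by a gene that fell there, from the same counts. They restate the split and are not separate evidence for it. Such a ratio also rises where only the gene it is divided by falls. There were 6.39, 5.19 and 4.56 Ly6c2 counts per Irf8 count in the MA9 mock libraries and 32.8, 34.4 and 32.4 in MA9 sPrdm16. In WT cells the ratio went down, from 9.66, 12.1 and 14.7 with mock to 5.35, 4.88 and 5.31 with sPrdm16. The ratio was thus higher with sPrdm16 in every MA9 library and lower in every WT library. F13a1 counts per Irf8 count went from 11.2, 8.45 and 8.0 to 45.7, 49.4 and 47.1 in MA9 and from 1.54, 1.85 and 1.35 to 1.09, 0.796 and 0.714 in WT. Measured against Csf1r the contrast was wider, with 15.2, 13.4 and 9.59 Ly6c2 counts per Csf1r count in MA9 mock, 132, 168 and 158 in MA9 sPrdm16, 2.49, 2.75 and 3.64 in WT mock and 1.11, 1.22 and 1.22 in WT sPrdm16. The groups did not overlap within a genotype in any of these ratios.

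**Figure D4:**
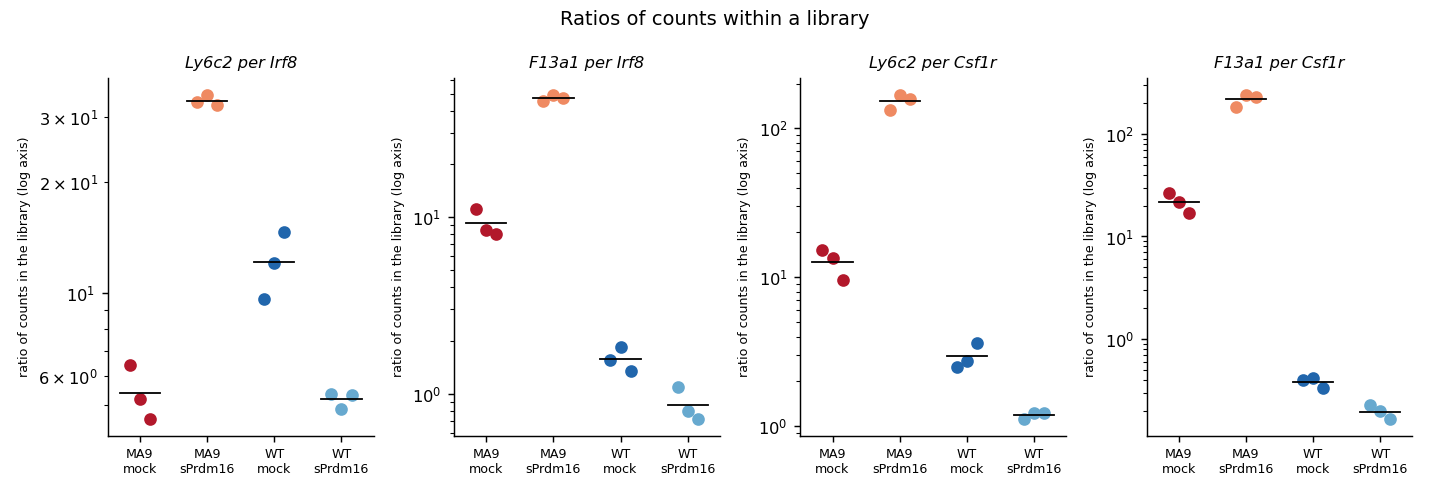
Counts of Ly6c2 and F13a1 per count of Irf8 and per count of Csf1r in the same library, on log axes; points are libraries and bars are means of 3. The ratios are higher with sPrdm16 in the MA9 libraries, for example from 4.56 to 6.39 up to 32.4 to 34.4 for Ly6c2 per Irf8, and lower with sPrdm16 in the WT libraries.

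Several of these genes have close relatives whose reads could be shared by the counting. Ly6c2 lies beside Ly6c1 on chromosome 15, and 32.6% of the 773 windows of 50 bases in its transcript Ly6c2-201 also occur in Ly6c1. The deposited estimates were not whole in 12 of 12 libraries for Ly6c2 and in 11 for Ly6c1, so part of these reads was assigned by estimation. Ly6c1 nevertheless went down where Ly6c2 went up. In MA9 cells it stood at 12.9, 13.9 and 21.5 CPM with mock and at 8.07, 7.97 and 6.50 CPM with sPrdm16 (log2 fold change -1.07, adjusted p = 0.00302), and in WT it fell by 1.002 (adjusted p = 0.0380). Summed with Ly6c1, Ly6c2 stood at 0.44 in MA9 (adjusted p = 0.00336) and at -1.02 in WT (adjusted p = 3.7e-07). The neighbour of Lyz2, Lyz1, shares 15.4% of such windows but had 0.0267 to 1.46 CPM in MA9 and 9.47 to 14.9 CPM in WT, and with both summed Lyz2 stood at -0.66 in MA9 and -0.23 in WT.

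Relatives of the transcription factors and of Ccr2 did not all move with them. Irf4, the closest relative of Irf8, fell by 3.77 on the log2 scale in MA9 (adjusted p = 0.000684) and was not called in WT (0.37). The MA9 value rests on few counts, 23, 46 and 24 with mock and 10, 10 and 4 with sPrdm16. Klf2, another Krüppel-like factor, was not called in MA9 (0.35, adjusted p = 0.154) and fell by 0.87 in WT (adjusted p = 0.000153), so its difference between the genotypes, 1.31 (adjusted p = 0.000179), had the sign opposite to that of Klf4. Ccr1, a receptor for other inflammatory chemokines, fell in both, by 2.59 in MA9 (adjusted p = 0.000184) and by 0.49 in WT (adjusted p = 0.000771).

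A list of 28 other monocyte and macrophage genes leaves out the 9. In MA9 cells 15 of its 20 tested genes fell and 2 rose, against 17.5% and 17.1% of all tested genes, with a median log2 fold change of -1.60. The summed level of all 28, on the scale of the 12 libraries, overlapped between the MA9 groups. It was 1760 to 2596 CPM in mock and 2115 to 2196 CPM in sPrdm16. In WT this sum was 9348 to 10394 CPM in mock and 8464 to 8967 CPM in sPrdm16. Vcan, a proteoglycan of classical monocytes, fell from 78.0 ± 24.6 to 5.00 ± 0.610 CPM (SD, n = 3; log2 -3.95, adjusted p = 2.7e-05). The beta-glucan receptor gene Clec7a fell by 1.79 and the transcription factor gene Zeb2 by 0.94, while Emb, a surface glycoprotein gene, rose from 445 ± 65.8 to 1128 ± 20.6 CPM (log2 1.34, adjusted p = 2.0e-05). Of this list Cd163, Marco, C1qa, C1qb and C1qc had 0 counts in all 6 MA9 libraries. In WT cells 15 of 25 tested fell and 3 rose, against 16.6% and 17.5% of all tested genes, with a median of -0.45. There the NADPH oxidase gene Cybb fell by 1.41, the lipopolysaccharide co-receptor gene Cd14 by 0.94 and the complement gene C1qb by 2.94.

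Of 16 ligand and signalling genes of the CSF1 receptor tested in MA9 5 rose and 3 fell, where 17.1% of all tested genes rose and 17.5% fell, with a median of 0.11. Of 17 in WT 4 rose and 5 fell, where 17.5% of all rose and 16.6% fell, with a median of -0.07. The kinase gene Pik3cd fell by 0.89 in MA9 (adjusted p = 2.0e-05) and rose by 0.71 in WT (adjusted p = 1.9e-05). Tyrobp, an adaptor of myeloid receptors, fell by 0.87 in WT (adjusted p = 1.9e-06) and was not called in MA9 (-0.09). Of 6 chemokine and chemokine receptor genes tested in MA9, beside the same shares of all genes, 4 fell and 0 rose, among them the marrow-retention receptor gene Cxcr4 (log2 -1.30, adjusted p = 1.0e-05). Of 10 in WT 7 fell and 1 rose, among them the ligand genes Ccl3, by 1.52, and Ccl12, a CCR2 ligand in the mouse (log2 -3.54).

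Of 19 other myeloid transcription factor genes tested in MA9 9 fell and 3 rose, and of 22 in WT 9 fell and 2 rose. The shares of all tested genes beside the counts of transcription factor, scavenger receptor and coagulation genes are 17.5% fallen and 17.1% risen in MA9, and 16.6% and 17.5% in WT. Irf5 fell by 2.15 and Egr2 by 3.44 in MA9, whereas Spi1, which encodes PU.1, rose from 52.2 ± 5.76 to 70.9 ± 1.91 CPM there (log2 0.45, adjusted p = 0.00322). In WT Spi1 was not called (-0.01, adjusted p = 0.939), Id2 fell by 1.18 and Irf7 rose by 1.35. Scavenger receptors other than Msr1 had 2 rises and 3 falls of 7 in MA9 and 0 and 5 of 8 in WT. The macrophage mannose receptor gene Mrc1 fell by 5.14 in MA9 and by 0.36 in WT. Its levels were far apart, at 4.46 ± 2.81 and 0.124 ± 0.137 CPM in MA9 mock and sPrdm16 and at 422 ± 21.9 and 328 ± 13.1 CPM in WT. The MA9 value thus rests on a level near 0 with sPrdm16. Coagulation genes other than F13a1 had 3 rises and 5 falls of 11 in MA9, where F5, encoding factor V, rose by 2.23 and Pros1, encoding protein S, fell by 3.65, and 1 rise and 7 falls of 11 in WT, where Serpinb2 fell by 1.86.

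Genes of other cell types were called too, beside the same shares of all tested genes. In WT cells 13 of 14 neutrophil genes fell and 0 rose, and their summed level, on the scale of the 12 libraries, went from 28841 to 33759 CPM in mock down to 5178 to 5480 CPM in sPrdm16. In MA9 cells 4 of 13 fell and 3 rose, with sums of 1009 to 1225 and 1435 to 1529.8 CPM, and Retnlg was at 0 in MA9 mock. Lyz2 and Ly6c2 are also transcribed in granulocytes. Mast cell and basophil genes fell in 10 of 10 tested in WT (summed level 4500 to 5003 CPM in mock and 461 to 503 in sPrdm16), and in 1 of 3 in MA9, where Cpa3, Mcpt4, Tpsb2, Tpsab1, Cma1, Fcer1a and Prss34 were at 0 in all 6 libraries. Eosinophil genes fell in 6 of 7 in MA9, from sums of 103 to 153 CPM to 12.9 to 14.9, and in 5 of 6 in WT, from 230.2 to 266 CPM to 13.3 to 18.5, with Ccr3 at 0 in both MA9 groups and in WT sPrdm16. Dendritic cell genes rose in 6 of 9 in WT, from sums of 638 to 743 CPM up to 2148 to 2435. Most of the sum in WT sPrdm16 came from Cd74, H2-Ab1 and H2-Aa, with means of 1709, 621 and 328 CPM scaled within WT. In MA9 1 rose and 2 fell of 6, with Flt3, Zbtb46, Batf3, Xcr1 and Ccr7 at 0 in MA9 mock. Early granulocyte and monocyte progenitor genes rose in 5 of 8 in MA9 and 5 of 9 in WT, with 1 and 0 falls. The part of these cell types in the values of the 9 genes was not tested.

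**Figure D5:**
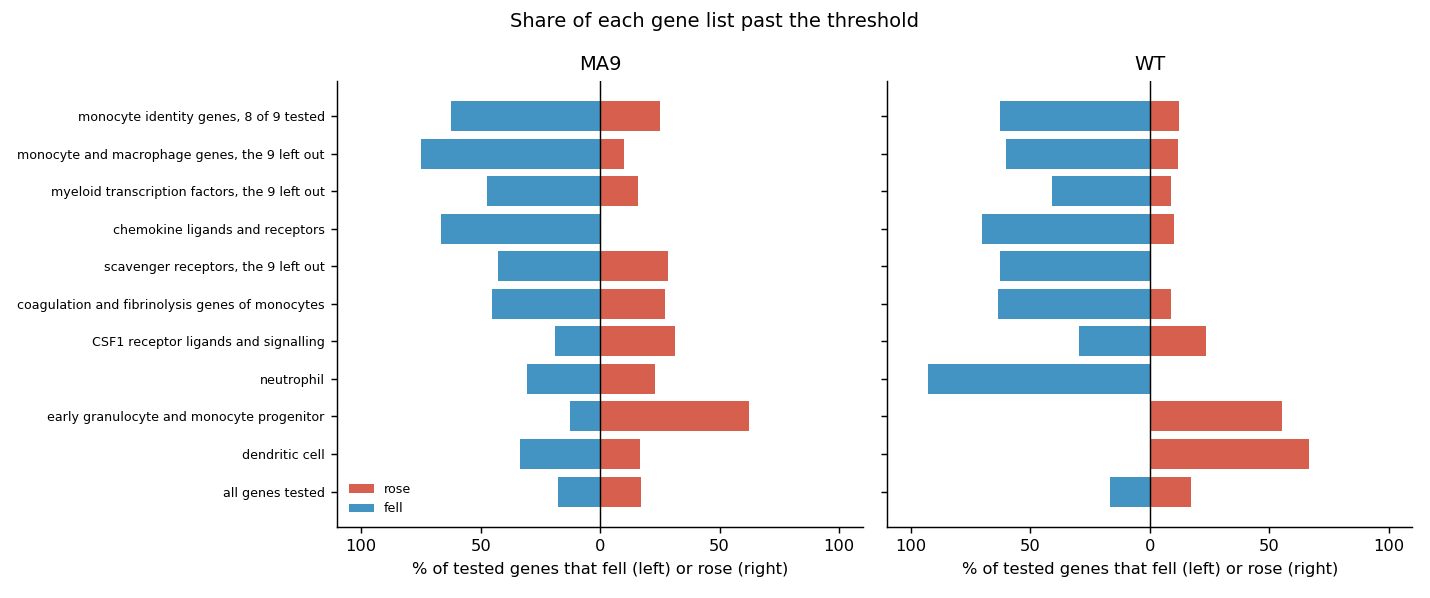
Percentage of the tested genes of each list that fell (bars to the left) or rose (bars to the right) with sPrdm16, in MA9 cells and in WT cells, with all genes tested as the bottom bar. Other monocyte and macrophage genes fell in 15 of 20 in MA9 and 15 of 25 in WT, and neutrophil genes in 4 of 13 and 13 of 14.

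The genes whose profile was most like that of each member were sought among 10322 protein-coding genes with at least 5 CPM in a group, by Pearson correlation of log2 CPM. Over all 12 libraries, which include the gap between MA9 and WT, Csf1r was most like Snx24 (r = 0.998) and Irf5 (0.998), Klf4 most like Fcgr1 (0.997), the gene of the high-affinity IgG receptor, and Ccr2 most like Vcan (0.988). With each genotype centred on its own mean, which leaves the effect of sPrdm16 and the spread between libraries, Irf8 and Csf1r had the same nearest genes, Cd86 (r = 0.989 with each) and Tgfbi (0.988 and 0.989). Klf4 was then most like Pet117 (0.994) and Fcgr1 (0.992), Ccr2 like Pros1 (0.990) and Ifi204 (0.989), and Msr1 like Ptms (0.987) and Trps1 (0.984). Ly6c2 was most like Lcn2 (0.995), the gene of a neutrophil granule protein, and Prdx5 (0.990), and F13a1 like Pbrm1 (0.968) and Scp2 (0.957). Lyz2 was most like Ctsc (0.980), and Cx3cr1, with few counts, like Slc30a1 (0.940). These correlations over 12 libraries are descriptions, and all points share the groups and the scaling.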

How the data were processed

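RNA-seq was made from 12 libraries of mouse bone marrow cells. RNA was purified on RNeasy columns and made into Nextera XT libraries, per the labels' protocols. The submitters' processing notes name the DRAGEN software, without a version, and the mm10 build. The sources used here do not say whether ribosomal RNA was removed or strand recorded. The authors deposited 1 table of expected counts per genotype, an estimated count per gene and library that need not be whole, with no scaling. Values were rounded to whole counts here.

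Tests were made in R 4.3.3 by edgeR 4.0.16 (TMM scaling, low-count filter with minimum count 10, robust quasi-likelihood F tests), with p-values adjusted by Benjamini and Hochberg over all genes tested and a threshold of 0.05. Each genotype had a fit of its own on 6 libraries, and the difference of effects was an interaction term over 12. A gene is said to have risen or fallen where it passed the threshold, and for the lists the counts and medians are given with no list test. Errors of CPM are SDs, and errors of log2 fold changes are SEs.

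All 9 genes were named in every comparison, with their near copies, up to 4 called genes of smallest p per list and comparison (Spi1, Tyrobp in MA9 and the WT value of Mrc1 stand beside these and were chosen after their values were seen), and the 2 genes most like each member. Some genes these rules name are not reported here. The members and the lists, which hold 216 genes, were chosen with earlier results of these data known. Correlations used log2 CPM with a prior count of 2.

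Alternatives were RLE scaling, total counts, nuclear protein-coding genes only, limma-voom (limma 3.58.1), DESeq2 1.42.0, a low-value filter of 5 CPM in 3 libraries or none, the replicate number as a block, each replicate left out, libraries thinned to equal protein-coding counts, and a fit on all 12 libraries. Sums of near copies were added after seeing the data. The code was tested on simulated data.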

Additional observations from a re-analysis of the deposited data

Results flagged for a closer look

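For 7 of the 9 genes the effect of sPrdm16 differed between MA9 and WT cells by a test of the difference itself (edgeR interaction over 12 libraries, adjusted over all genes), where 28.0% of all tested genes did. The level of Prdm16 also differed between MA9 sPrdm16 and WT sPrdm16, and the WT culture is not known. The kind of cell cannot be told apart from these. The effect was lower in MA9 than in WT for Klf4 (log2 difference -4.17), Csf1r (-3.29), Ccr2 (-2.33), Msr1 (-2.26) and Irf8 (-2.25). It was higher in MA9 than in WT for Ly6c2 (1.62) and F13a1 (1.03). For Ly6c2 the groups did not overlap within either genotype, with every MA9 sPrdm16 library above mock and every WT sPrdm16 library below it. For F13a1 they did not overlap in MA9 and did overlap in WT on the scale of the 12 libraries. The structural RNA share, which fell from 64.6% to 18.7% of the counts in MA9 and stood at 2.25% and 1.72% in WT, moved with these differences. Counted on nuclear protein-coding genes alone, the 7 differences were -4.16 (Klf4), -3.27 (Csf1r), -2.31 (Ccr2), -2.25 (Msr1), -2.23 (Irf8), 1.63 (Ly6c2) and 1.04 (F13a1). With total counts they moved to between -2.98 (Klf4) and 2.80 (Ly6c2), each in the same direction.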

How the results depend on the processing

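Of 450 values of single genes under an alternative, 418 kept direction and call, 22 lost the call, 6 gained it and 4 turned. Total counts gave 11489 rises and 607 falls of all genes in MA9, 1501 falls in WT and 8176 higher and 342 lower for the difference, and moved the median gene by 1.43, 0.18 and 1.21 on the log2 scale. There Lyz2 turned to 0.85 in MA9 and to 0.91 for the difference, Klf4 in WT to 0.086, and 2 of the 9 genes rose in WT. Klf4 in WT ran from -0.23 to 0.023 with 1 library left out in turn, turning without WT sPrdm16 replicate 1. With 1 library left out in turn, 1533 to 3268 genes rose in MA9 (1533, 1556 and 1600 without sPrdm16 replicates 1, 2 and 3), 1 to 2 of the 9 genes rose in MA9 and 0 to 1 in WT. Of the 9 genes 1 rose in MA9 with RLE scaling, 1 rose and 3 fell with the filter of 5 CPM, under which Klf4 and Msr1 were not tested because fewer genes passed it, and 1 rose in MA9 and 0 in WT in the fit on all 12 libraries. For each other change in call the cause was not tested. The 7 differences named above kept direction and call under every alternative run.

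Same-numbered replicates did not deviate together (correlations of -0.05 to 0.05), so no pairing by number was seen. With 3 libraries per group this cannot settle whether the numbers stand for shared cultures or animals. With the replicate number as a block 2 of the 9 genes rose and 5 fell in MA9, 1 and 5 in WT, and 2103 and 2088 of all genes in MA9. Values of Klf4 and Msr1 in MA9 sPrdm16 rest on 7 to 19 counts per library, and those of Cx3cr1 on 0 to 17, which limits their precision.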
